A study of Mus musculus with 4 samples.

Results

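RNA for 36 genes of the cell cycle machinery was examined in mouse ventricle with a moderate, heart-restricted excess of serum response factor (SRF). The genes were taken from a list of cyclins, cyclin-dependent kinases (CDKs), CDK inhibitors, replication genes and mitosis genes. Of these, 34 had a probe set that the platform annotation ties to a single gene symbol, among 8251 such genes on the array, and Ccnb1 and Tyms had none. Where a gene had several probe sets, the one with the highest mean signal over all 4 arrays stood for it. The 34 genes comprised 12 regulators of G1, 9 replication genes, 10 mitosis genes, and a small remainder of 3 made up of the 2 G-type cyclins and Cdk5.

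The series held 4 arrays of ventricular RNA from mice aged 6 months, 2 from non-transgenic mice and 2 from mice transgenic for SRF. SRF binds a DNA element called the CArG box and activates genes of muscle, of the cytoskeleton and of the immediate early response. Not given in the sources used here were the promoter of the transgene, the strain, the sex and any pooling of animals. Nothing in the labels says that the 2 arrays of a group came from separate mice, so p values measure the spread between arrays, which may be technical. Srf itself was not analysed here, so the excess of SRF was not checked on these arrays.

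A cell enters the cycle in G1, when D-type cyclins bind Cdk4 and its close relative and the resulting kinase phosphorylates the retinoblastoma protein, encoded by Rb1. Phosphorylation frees E2F factors such as E2f1, which switch on cyclin E and the genes of DNA replication, and the CDK inhibitors Cdkn1a, Cdkn1b and Cdkn2c restrain these kinases. Cyclin A, cyclin B and Cdk1 then carry the cell through S phase into mitosis. Adult mouse cardiomyocytes have largely left the cycle, and most dividing cells of the adult heart belong to its other cell types.

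The arrays had median signals between 49.0 and 53.85, on a linear scale that the authors had set to a common mean. Cardiomyocyte markers were abundant on every array, and over the 10 that were measured the summed signal was 90422 and 87988 without the transgene and 71557 and 72599 with it. Hepatocyte transcripts were present on the non-transgenic arrays, with a summed signal over 12 markers of 1992 and 3735 against 151 and 196 on the transgenic arrays. In bulk tissue a lower share of one cell type and less RNA per cell cannot be told apart.

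Of the 34 measured cell cycle genes, 1 rose in transgenic ventricle, 0 fell, 24 did not pass the test, and 9 were too dim to be tested. The gene that rose was Ccnd2, which encodes cyclin D2. The test was limma on log2(signal + 9) over 7453 probe sets, with a call at an adjusted p below 0.05 after Benjamini-Hochberg adjustment over all of them. The dimmest 40% of probe sets, those with a mean below about 30.0 signal units, were left out without regard to group. On the same test 4.26% of the 5685 genes tested rose and 4.08% fell (8.34% called in all), so 1 rise among 25 tested members is close to the background share. An unadjusted p below 0.05 was found for 9 of the 25 members, 7 of them higher and 2 lower, against 12.1% of all tested genes higher and 12.6% lower.

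**Figure D1:**
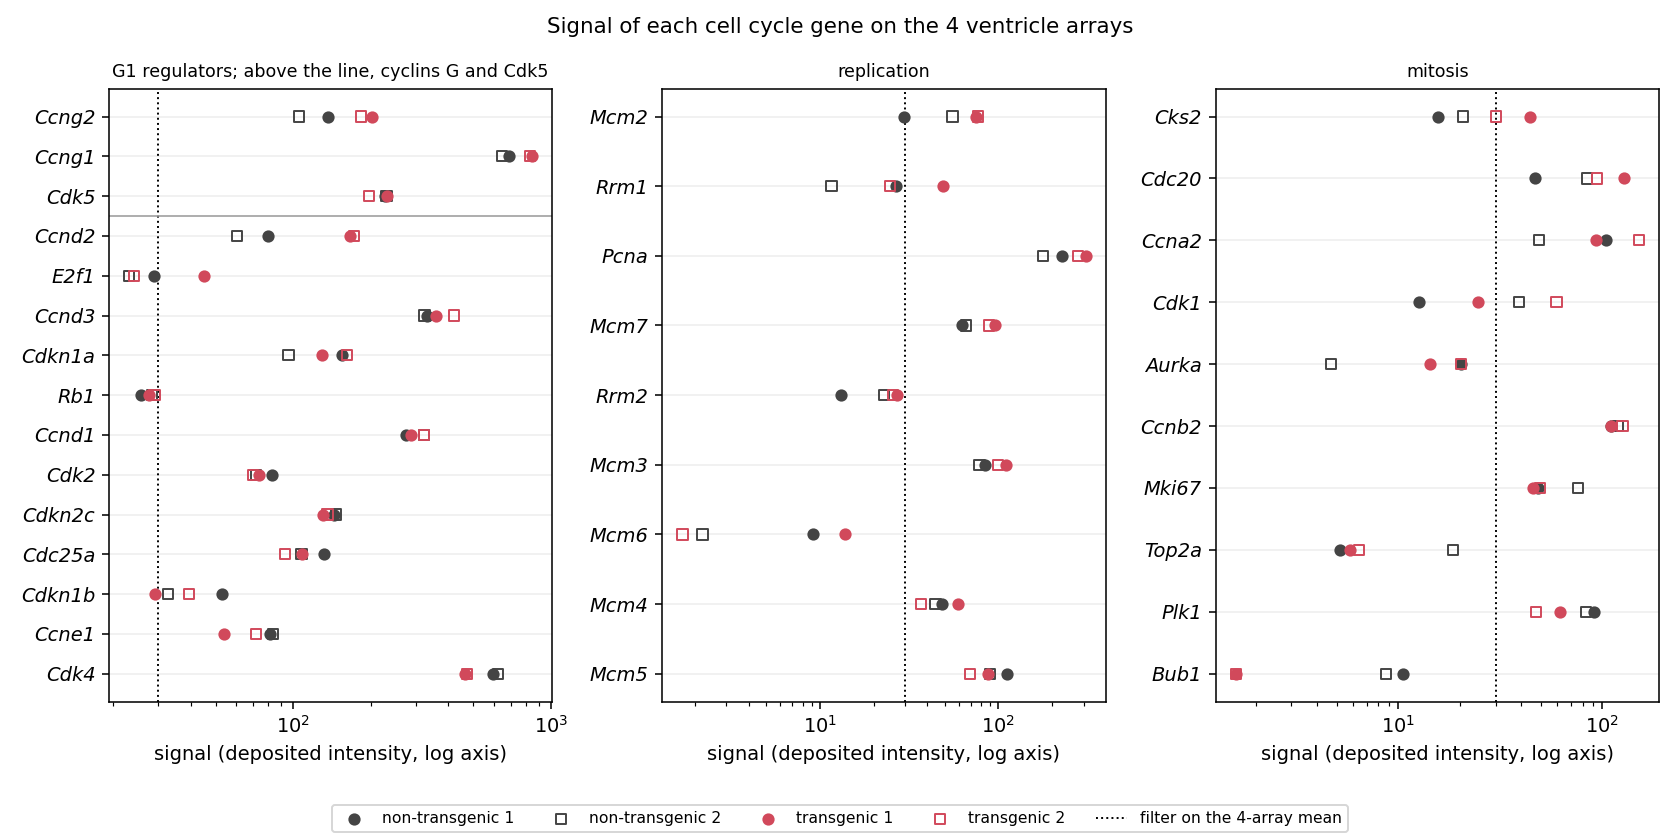
Deposited signal of the 34 measured cell cycle genes on each of the 4 arrays (log axis), with G1 regulators, cyclins G and Cdk5 on the left, replication genes in the middle and mitosis genes on the right; the dotted line marks the filter, which applies to the mean over the 4 arrays. The transgenic Ccnd2 values of 166.4 and 171.9 stand clear of the non-transgenic values of 79.6 and 60.7, while for most mitosis genes the groups overlap.

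Among the cyclins of G1, Ccnd2 alone passed the test. Non-transgenic arrays gave Ccnd2 signals of 79.6 and 60.7, and transgenic arrays 166.4 and 171.9. The groups did not overlap, and the transgenic arrays lay close together. The mean was 70.2 ± 13.4 against 169 ± 3.89 (SD, n = 2 each), a 2.27-fold rise with a log2 change of 1.18 ± 0.18 (moderated SE; limma, Benjamini-Hochberg adjusted p = 0.0131). Of all tested genes, 1.07% had a log2 change at least as high. The call held without any 1 of the 4 arrays (limma, Benjamini-Hochberg adjusted p from 0.0133 to 0.0379), but ended when limma shared 1 prior variance over all signals (adjusted p = 0.0596), a setting under which 44 probe sets in all rose.

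The remaining G1 cyclins did not pass the test. Ccnd1, the cyclin that growth factors induce in many cell types, had signals of 273.4 and 321.2 without the transgene and 287.1 and 322.4 with it. Its groups overlapped almost completely, and its log2 change was 0.04 ± 0.14. A dimmer Ccnd1 probe set had 107.9 and 110.5 against 130.1 and 121.0, with no overlap. Its log2 change was 0.19 ± 0.15 (limma, Benjamini-Hochberg adjusted p = 0.505). Ccnd3, the third D-type cyclin, had signals of 329.5 and 323.3 against 356.3 and 420.7. Both transgenic values lay above both non-transgenic ones, with a log2 change of 0.24 ± 0.13 (limma, Benjamini-Hochberg adjusted p = 0.292). Ccne1, cyclin E1, the partner of Cdk2 at entry into S phase, leaned the other way, at 81.5 and 83.4 against 54.0 and 71.7. Its log2 change was -0.36 ± 0.20 (limma, Benjamini-Hochberg adjusted p = 0.327).

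The kinases and the activating phosphatase of G1 gave values at or below the non-transgenic level. Cdk4, the main partner of the D-type cyclins, had signals of 595.4 and 622.6 without the transgene and 463.5 and 473.1 with it. The groups did not overlap, but the log2 change of -0.37 ± 0.10 missed the threshold (limma, Benjamini-Hochberg adjusted p = 0.0733). A dimmer Cdk4 probe set pointed the other way, at 71.8 and 65.7 against 154.6 and 69.7, where the transgenic array with replicate number 1 alone was high. Cdk2, which acts with cyclins E and A, had overlapping signals of 82.6 and 71.5 against 73.4 and 69.8. Cdc25a, the phosphatase that removes inhibitory phosphates from CDKs, also overlapped, at 131.9 and 107.8 against 108.2 and 92.7 (log2 change -0.23 ± 0.18).

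For the CDK inhibitor Cdkn1a (p21), a p53 target that rises in many stressed tissues, the outcome depended on the probe set. The brighter one had signals of 155.1 and 95.9 against 129.3 and 161.5. These overlapped, with a log2 change of 0.23 ± 0.24. The dimmer one had signals of 60.9 and 75.3 against 146.3 and 119.9, a log2 change of 0.88 ± 0.19 and a 1.84-fold rise (limma, Benjamini-Hochberg adjusted p = 0.0376). By the same test this call was lost in the absence of non-transgenic replicate 1 (adjusted p = 0.0997), without transgenic replicate 1 (0.193) and without transgenic replicate 2 (0.0597), and also without the filter (0.0889) or the variance trend (0.0864). The non-transgenic arrays differed in opposite directions on the 2 probe sets. Over all 7453 probe sets the test called 7.93%, with 4.07% higher and 3.86% lower.

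The other brakes and their targets showed no called change. Cdkn2c (p18), an inhibitor of Cdk4, had signals of 144.0 and 146.9 against 130.9 and 135.8, which did not overlap but differed by a log2 change of only -0.12 ± 0.14. Cdkn1b (p27), which holds cells in quiescence, had overlapping signals of 53.1 and 32.6 against 29.1 and 39.5. Rb1 was under the filter, at 25.6 and 28.3 against 27.5 and 29.0. E2f1 was under it too, at 28.9 and 23.1 against 45.0 and 24.1, with 1 transgenic array above the other values. Neither Rb1 nor E2f1 was tested.

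The G-type cyclins are targets of p53 (Ccng1) and of FoxO factors (Ccng2) that are tied to arrest rather than to progress through the cycle. Ccng2 had signals of 136.4 and 105.2 without and 202.6 and 183.0 with the transgene. The groups did not overlap, and the log2 change was 0.65 ± 0.17, just short of a call (limma, Benjamini-Hochberg adjusted p = 0.0704). It passed with each array centred on its median (adjusted p = 0.0471), with the dimmest 60% of probe sets left out (0.0451) and with the replicate number as a block (0.0471), by limma's Benjamini-Hochberg adjusted p. By the same measure it was 0.123 without the filter, 0.135 without the variance trend, and 0.0503 to 0.257 with 1 array left out. Ccng1 had signals of 689.8 and 646.4 against 845.1 and 829.2, again with no overlap (log2 change 0.32 ± 0.09, limma, Benjamini-Hochberg adjusted p = 0.0911). Cdk5, a kinase best known in neurons and not needed for division, had overlapping signals of 226.1 and 229.8 against 230.5 and 197.0.

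Replication genes leaned upward, with none called. Of 9 measured genes, 8 had a higher mean in transgenic ventricle, against 45.2% of all measured genes, and 5 had both transgenic arrays above both non-transgenic ones, against 22.7% of all measured genes. Their median log2 change was 0.41 over all 9, and 0.40 over the 6 that were bright enough to test. Of these 6, 3 had an unadjusted p below 0.05, all of them higher, against 12.1% of all tested genes. The higher mean of Rrm1 rests on its brighter probe set, and with its probe sets averaged the log2 change was -0.29.

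Pcna, the clamp that holds DNA polymerase on its template, gave 228.4 and 177.8 in the absence of the transgene and 307.4 and 279.5 in its presence. Both transgenic values were higher, by a log2 change of 0.52 ± 0.16 (limma, Benjamini-Hochberg adjusted p = 0.0987). Mcm2, a subunit of the MCM helicase that unwinds DNA at origins, had 29.7 and 55.2 against 75.3 and 76.5. The non-transgenic arrays were far apart here, and the log2 change of 0.77 ± 0.28 was not called (limma, Benjamini-Hochberg adjusted p = 0.150) except without non-transgenic replicate 2 (adjusted p = 0.0491). Mcm7, another subunit of the ring, had 62.8 and 66.1 against 96.2 and 88.8, a log2 change of 0.47 ± 0.18 (limma, Benjamini-Hochberg adjusted p = 0.167).

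The subunits of the MCM ring, which assemble in equal numbers in the cell, did not share one direction. Mcm3 had signals of 84.0 and 78.3 against 110.0 and 99.1, with no overlap and a log2 change of 0.33 ± 0.17. Mcm5 was lower on both transgenic arrays, at 111.8 and 89.9 against 87.6 and 69.6 (log2 change -0.33 ± 0.20). Mcm4 overlapped, at 48.5 and 44.4 against 59.4 and 36.8. Mcm6 was at the floor of the array on every sample, between 1.7 and 13.8, and was not tested. The ribonucleotide reductase subunits, which make the building blocks of DNA, were under the filter: Rrm1 had 26.6 and 11.6 against 49.2 and 24.8, and Rrm2 had 13.2 and 22.9 against 27.0 and 25.7.

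Mitosis genes moved in both directions without a call. Of 10 measured genes, 6 had a higher and 4 a lower mean in transgenic ventricle. The groups did not overlap for 4 of the 10 genes, 2 higher and 2 lower, against 51.0% of all measured genes (22.7% higher and 28.3% lower). The median log2 change was 0.21 over the 10 and 0.30 over the 6 that were tested, but it was -0.011 over the 10 without non-transgenic replicate 1 and -0.0014 without transgenic replicate 2.

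Cdc20, the activator of the anaphase-promoting complex, had signals of 46.9 and 84.0 against 127.0 and 94.1. The transgenic values were higher, but the spread within each group was wide (log2 change 0.72 ± 0.28, limma, Benjamini-Hochberg adjusted p = 0.177). Ccna2, cyclin A2, ranged from 48.8 to 103.7 without and from 93.0 to 150.8 with the transgene, and its groups overlapped (log2 change 0.66 ± 0.35). Cdk1, the kinase of mitotic entry, had 12.7 and 39.1 against 24.5 and 59.5. Its arrays differed more within than between the groups, and the log2 change was 0.57 ± 0.48. Cks2, a small CDK-binding protein, had 15.7 and 20.7 against 44.2 and 30.1 and was under the filter.

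Other mitosis genes were level or lower. Ccnb2, cyclin B2, had signals of 109.9 and 118.9 against 109.7 and 125.6, a log2 change of 0.04 ± 0.16. Mki67, whose protein Ki-67 marks cycling cells in tissue sections, had 48.1 and 76.0 against 45.5 and 49.3. The non-transgenic array with replicate number 2 was high and the other 3 lay together (log2 change -0.31 ± 0.25). Plk1, polo-like kinase 1, had 91.2 and 83.2 against 61.7 and 47.3, with no overlap and a log2 change of -0.61 ± 0.21 (limma, Benjamini-Hochberg adjusted p = 0.127). A second, dimmer Plk1 probe set had 30.5 and 32 against 25.8 and 87.9, where 1 transgenic array was high and the other was the lowest of the 4.

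The dimmest mitosis genes were not tested. Top2a, the topoisomerase that untangles replicated DNA, had signals of 5.2 and 18.5 against 5.8 and 6.4. Aurka, a kinase of spindle assembly, had 20.2 and 4.7 against 14.3 and 20.3, and Bub1, a spindle checkpoint kinase, had 10.6 and 8.7 against 1.6 and 1.6. Bub1 did not overlap between groups, at signals where most probe sets of the array were brighter on every sample.

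**Figure D2:**
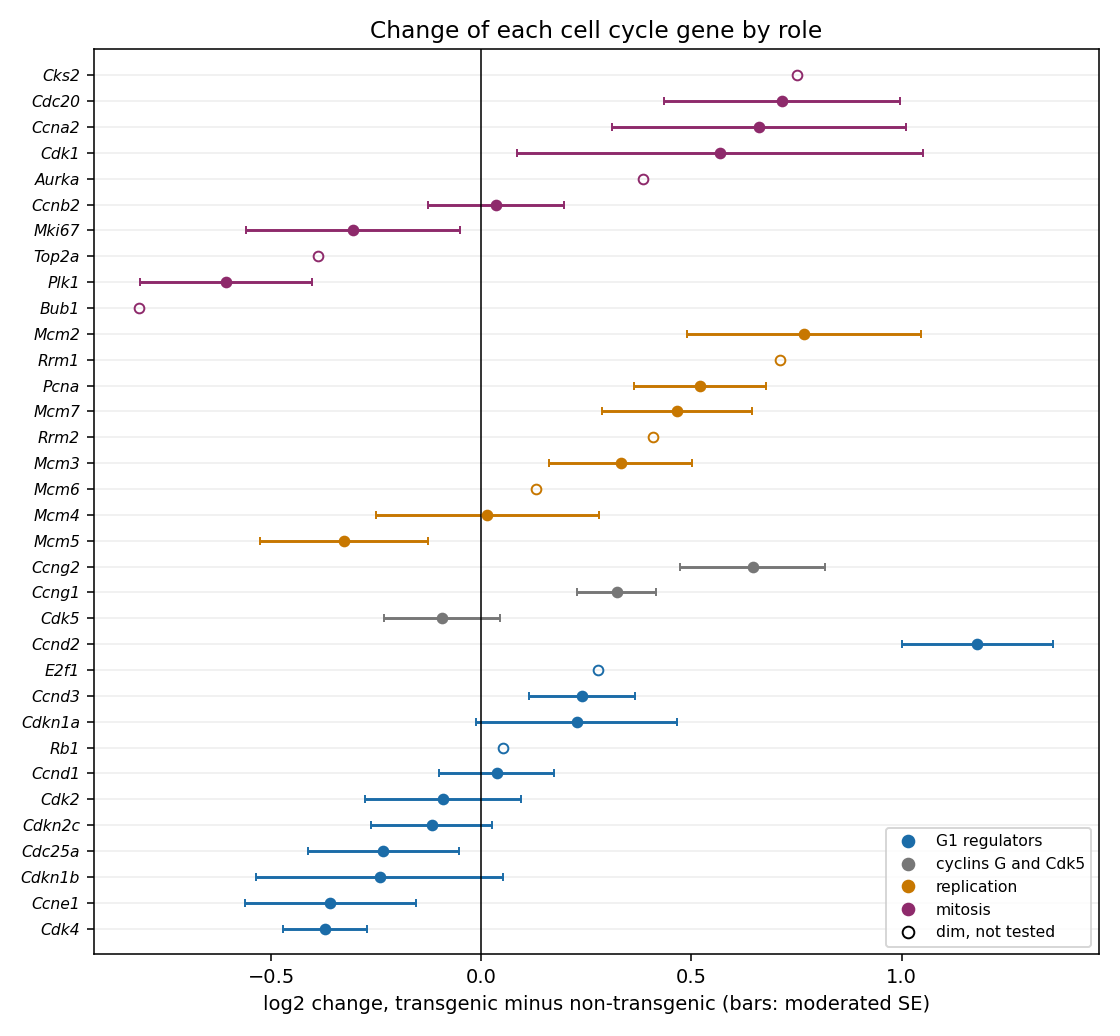
Log2 change (transgenic minus non-transgenic, on the log2(signal + 9) scale) of the 34 measured genes by role, with moderated standard errors for the 25 tested genes and open circles for the 9 dim ones. Ccnd2 at 1.18 lies well to the right of the remaining G1 regulators, which run from -0.37 to 0.28, while 8 of 9 replication genes lie right of 0.

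The role groups had different medians, which describe these genes and were not tested against each other. The median log2 change was -0.03 for the 12 G1 regulators, 0.41 for the 9 replication genes and 0.21 for the 10 mitosis genes, against -0.04 for all 8251 measured genes. G1 regulators were evenly divided, with 6 higher and 6 lower means. Averaged over its genes, the replication group had a mean log2 signal of 5.83 and 5.72 in non-transgenic and 6.28 and 5.93 in transgenic ventricle. The transgenic arrays were the higher ones, and they differed from each other by more than the non-transgenic arrays did. The mitosis group averaged 5.41 and 5.55 against 5.52 and 5.64, which overlapped, and the G1 group 6.94 and 6.79 against 6.89 and 6.94, which overlapped too. Over all 34 genes, the groups did not overlap for 17, or 50%, against 51.0% of all measured genes, and among the 25 tested for 14, against 56.0% of all tested genes.

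**Figure D3:**
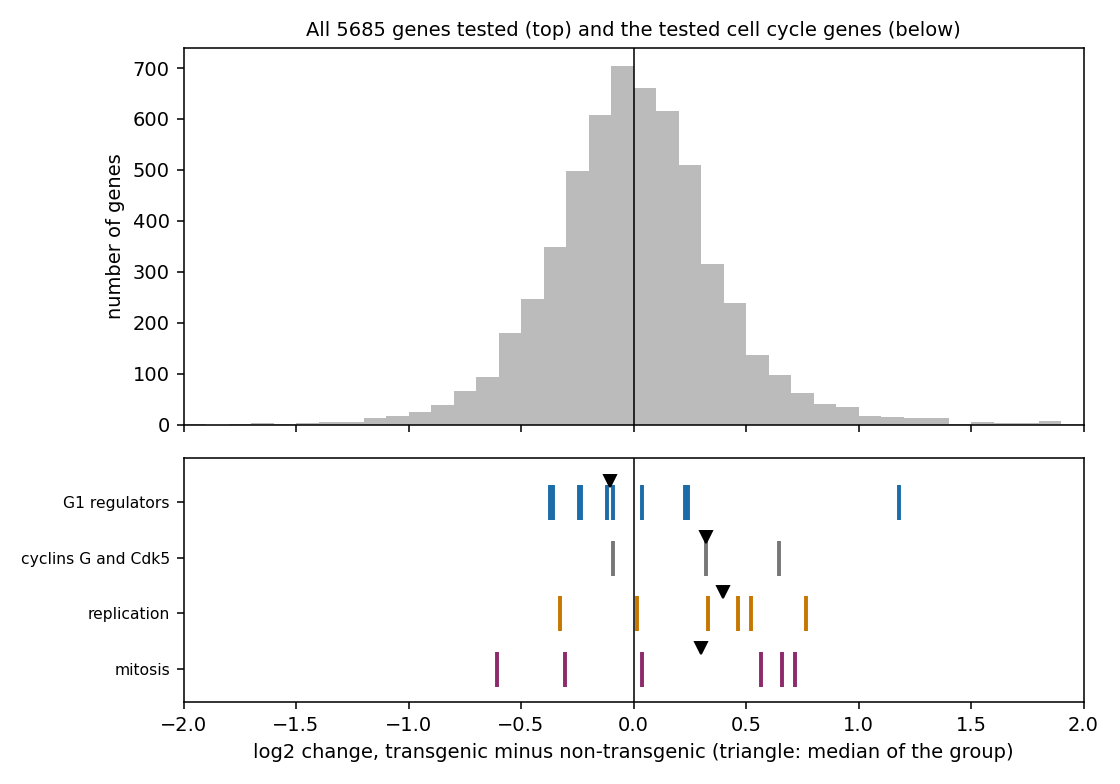
Distribution of log2 changes of all 5685 genes tested (top, number of genes per bin of log2 change, shown from -2 to 2) and the position of each tested cell cycle gene by role (bottom), with triangles at group medians. The tested replication genes centre on 0.40 and the tested G1 regulators on -0.10, with Ccnd2 alone in the upper tail at 1.18.

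Several of these values rest on the choice of probe set. Of the 34 genes, 14 had more than 1 probe set, and for 7 of them (50%) the probe sets gave changes of opposite sign, against 47.5% of the 2073 genes on the array with several. The 7 were Cdc25a, Cdk2, Cdk4, Mki67, Plk1, Rb1 and Rrm1. Further probe sets had log2 changes of 0.09 for Cdc25a, 0.12 for Cdk2, 0.13 for Mki67 and -0.50 for Rb1, and those of Plk1 had 0.53 and 0.24. For Rrm1 the gap was widest, with a log2 change of 0.71 on one probe set and -1.29 on another that had signals of 23.9 and 16.0 against 2.3 and 3.1, and neither was bright enough to test. Ccnd2, Pcna, Mcm2, Mcm7 and the G-type cyclins had 1 probe set each, so no second measure was at hand.

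**Figure D4:**
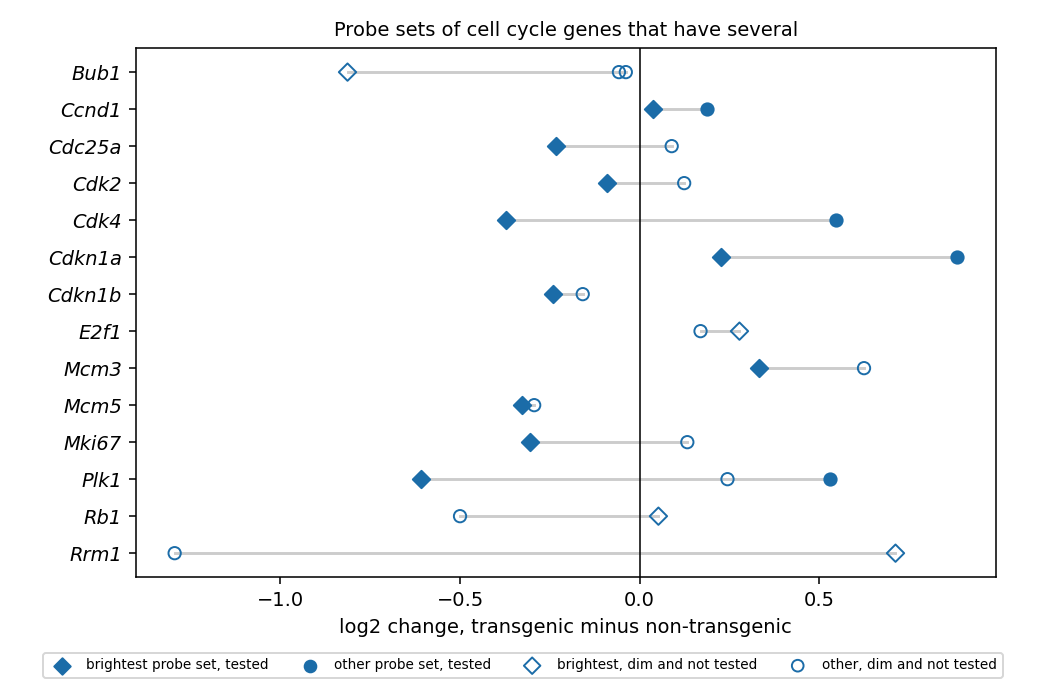
Log2 change of each probe set of the 14 cell cycle genes that have several; diamonds mark the brightest probe set of a gene, circles the others, and open symbols those too dim to test. Cdkn1a has both tested probe sets right of 0, at 0.23 and 0.88, while Cdk4 and Plk1 have tested probe sets on both sides.

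Beyond the 34 genes, further cell cycle genes were examined in lists of their own. Of 15 measured cyclins and CDKs of other kinds, 0 rose, 0 fell, 11 did not pass the test and 4 were under the filter. Of the 11 tested, 3 had an unadjusted p below 0.05 in limma. The share among all tested genes was 24.7% (12.1% higher and 12.6% lower). All 3 were lower, and Cdk7 is named after its values were seen: Mnat1 (log2 change -0.82 ± 0.23) and Cdk7 (-0.58 ± 0.22), which form the CDK-activating kinase with cyclin H, and Cdk9 (-0.54 ± 0.17), the kinase of transcription elongation. Of 18 other CDK inhibitors, pocket proteins, E2F factors and related regulators, 0 rose, 0 fell, 10 did not pass and 8 were under the filter. Of the 10 tested, 1 had an unadjusted p below 0.05 in limma, beside the same 24.7% of all tested genes. That gene was Foxm1, a driver of mitotic transcription, at 200.4 and 143.9 against 119.9 and 121.8. Btg1, an antiproliferative factor, came next, at a log2 change of 0.43 ± 0.20.

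The wider replication and mitosis lists centred on 0. Of 37 other replication genes 0 rose, 0 fell, 23 did not pass and 14 were under the filter. Their median log2 change was -0.01. Of the 23 tested, 2 had an unadjusted p below 0.05 in limma, against 24.7% of all tested genes. They were Pold2, higher (0.52 ± 0.21), and Pola2, lower (-0.41 ± 0.17), both encoding DNA polymerase subunits. Of 43 other mitosis genes 1 rose, 0 fell, 22 did not pass and 20 were under the filter, with a median of 0.04. Among all tested genes 4.26% rose and 4.08% fell, so 1 rise among 23 tested is close to the background share. The riser was Cks1b, the close relative of Cks2, at 44.5 and 55.9 against 110.1 and 104.1. Its groups did not overlap and its rise was 1.97-fold (log2 change 0.98 ± 0.19, limma, Benjamini-Hochberg adjusted p = 0.0287). By the same limma test the call was lost in the absence of non-transgenic replicate 1 (adjusted p = 0.0722), without transgenic replicate 1 (0.135) or 2 (0.0890), and without the filter (0.0781) or the variance trend (0.0657), and Cks1b was too dim to test with the dimmest 60% left out. Cenpa, the centromeric histone, had 111.0 and 121.6 against 72.4 and 84.2 and was not called (limma, Benjamini-Hochberg adjusted p = 0.122). The medians of the 9 replication members (0.41) and of the longer replication list (-0.01) were not tested against each other.

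Most fibroblast and macrophage markers were higher with the transgene, whereas endothelial markers went in both directions. Of 14 fibroblast markers 11 rose, 0 fell and 3 did not pass, and their summed signal was 8756 and 8578 against 14492 and 13949, 1.64-fold higher. The 3 that did not pass all had lower means with the transgene. Pdgfra had 523.0 and 391.1 against 331.9 and 298.3, with no overlap and a log2 change of -0.51 ± 0.16. Thy1 and Ddr2 overlapped, each at a log2 change of -0.09. Of 12 macrophage markers 5 rose, 0 fell, 4 did not pass and 3 were under the filter, with a summed signal of 2491 and 2737 against 4081 and 4172, 1.58-fold higher. Adgre1, which encodes the macrophage antigen F4/80, was under the filter, at 8.6 and 9.9 against 31.5 and 38.3. Both transgenic arrays lay above both non-transgenic ones for 11 of the 12 macrophage markers, against 22.7% of all measured genes. The exception, Fcgr3, was under the filter too and overlapped, at 35.0 and 21.5 against 12.1 and 36.1. Of 9 endothelial markers, Eng rose, Tie1 fell and 7 did not pass, with 2 means higher and 7 lower and a median log2 change of -0.08. Their summed signal was 3664 and 3594 against 3875 and 3875, and Eng made up 1330.9 and 1193.8 against 1741.3 and 1780.2 of it. Of 10 cardiomyocyte markers 5 fell and 5 did not pass. Among all tested genes 4.26% rose and 4.08% fell.

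Markers of further cell types were read the same way. Of 10 lymphocyte markers 0 rose, 0 fell, 4 did not pass and 6 were under the filter. Their summed signal was 343.9 and 453.1 against 305.2 and 266.2, with 3 means higher and 7 lower. The T cell gene Cd3e was under the filter, between 8.7 and 11.8 on all arrays. Cd79a was tested and not called, at 70.1 and 106.9 against 48.1 and 44.6. Of 5 erythroid markers 0 rose, 0 fell, 4 did not pass and 1 was under the filter. Their summed signal was 14930.5 and 13449.3 against 12100.1 and 12553.6. Of 5 smooth muscle markers Acta2 rose, 3 did not pass and 1 was under the filter, with a summed signal of 975.0 and 1020 against 2108 and 2196, most of it from Acta2 on the transgenic arrays (396.7 and 430.6 against 1478 and 1539). Of 12 hepatocyte markers 5 fell, 2 did not pass and 5 were under the filter. The part of any of these cell types in the rise of Ccnd2 or in the values of the replication genes was not tested.

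Promoter motifs of cell cycle control were unevenly spread over the role groups. Windows from 250 bases before to 50 bases after the transcription start were taken from RefSeq (GRCm38.p6), and 28 of the 34 genes matched, with 32 windows in all. Ccnd2 was not among them. E2F motifs (TTTCCCGC, TTTGGCGC, TTTCGCGC or TTTGCCGC on either strand) were found in 7 of the 32 windows, or 21.9%, against 2.26% of all 32851 windows and 3.52% of those of genes on the array. They lay in 4 of 8 replication genes (Mcm3, Mcm5, Mcm6 and Mcm7), in Cdc25a and Cdk2 among 9 G1 regulators, and in Cdk1 among 9 mitosis genes.

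The cell cycle homology region, or CHR (TTTGAA on either strand), is bound by the repressive DREAM complex in resting cells. It was found in 7 of 9 mitosis genes (Aurka, Ccnb2, Cdc20, Cdk1, Mki67, Plk1 and Top2a), in Mcm2 among 8 replication genes and in 0 of 9 G1 regulators. Counted by window, this was 7 of 9, 1 of 9 and 0 of 12. The window shares were 17.9% of all windows and 12.9% of those of genes on the array. CCAAT boxes (CCAAT on either strand) are the sites of the factor NF-Y. They were in all 8 replication and all 9 mitosis genes and in 5 of 9 G1 regulators. Counted by window, this was 9 of 9, 9 of 9 and 5 of 12 (41.7%). The window shares were 37.4% of all windows and 37.0% of those of genes on the array. The CArG box (CC, then 6 A or T, then GG), the element of SRF, was in 0 of the 32 windows, against 1.63% of all windows and 1.59% of those of genes on the array. A match describes the letters and is not evidence of binding, and a window without one says nothing about the factor.

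Windows of 3 genes are shown because they carry these elements in different combinations, and they were chosen after the values were seen. E2F motifs, CCAAT boxes and CHR letters are in capitals and all else is in lower case. Mcm7 on the minus strand at chr5:138171834-138172133 has 2 E2F motifs and 3 CCAAT boxes, one of which overlaps an E2F motif by 1 base, and no CHR. A second Mcm7 window, at chr5:138171217-138171516 and not shown, has 1 CCAAT box and no E2F motif or CHR. Plk1 on the plus strand at chr7:122159185-122159484 has 1 CCAAT box, 14 bases before the start, and 1 CHR. Cdk1 on the minus strand at chr10:69352863-69353162 has all of them, with 1 E2F motif, 3 CCAAT boxes and 2 CHR matches.
Mcm7: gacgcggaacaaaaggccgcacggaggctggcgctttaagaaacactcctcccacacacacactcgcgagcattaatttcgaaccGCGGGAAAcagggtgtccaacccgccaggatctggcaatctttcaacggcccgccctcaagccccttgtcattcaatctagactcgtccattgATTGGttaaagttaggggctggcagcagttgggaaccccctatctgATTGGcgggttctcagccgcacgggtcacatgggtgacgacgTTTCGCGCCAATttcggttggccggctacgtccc
Plk1: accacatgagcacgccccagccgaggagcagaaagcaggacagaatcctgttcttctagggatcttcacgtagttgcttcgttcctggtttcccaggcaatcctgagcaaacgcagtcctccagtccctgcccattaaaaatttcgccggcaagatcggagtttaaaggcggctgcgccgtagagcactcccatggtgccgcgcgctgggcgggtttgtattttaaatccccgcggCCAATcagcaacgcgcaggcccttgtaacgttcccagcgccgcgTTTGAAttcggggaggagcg
Cdk1: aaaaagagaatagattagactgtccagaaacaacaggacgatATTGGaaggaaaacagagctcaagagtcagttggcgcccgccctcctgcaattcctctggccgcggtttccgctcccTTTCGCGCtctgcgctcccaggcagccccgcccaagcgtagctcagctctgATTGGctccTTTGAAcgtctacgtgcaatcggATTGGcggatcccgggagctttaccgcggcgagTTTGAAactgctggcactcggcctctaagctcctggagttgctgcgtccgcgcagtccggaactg

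On the arrays these 3 genes had different values. Mcm7 leaned higher (log2 change 0.47 ± 0.18) and Cdk1 was too variable to place (0.57 ± 0.48). Plk1 leaned lower on its brightest probe set (-0.61 ± 0.21) and higher on its dimmer ones (0.53 and 0.24). None of the 3 genes passed the test in limma. Among the 7 mitosis genes with a CHR, the log2 change of the brightest probe set ran from -0.61 for Plk1 to 0.72 for Cdc20. Among the 4 Mcm genes with an E2F motif it ran from -0.33 for Mcm5 to 0.47 for Mcm7.

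**Figure D5:**
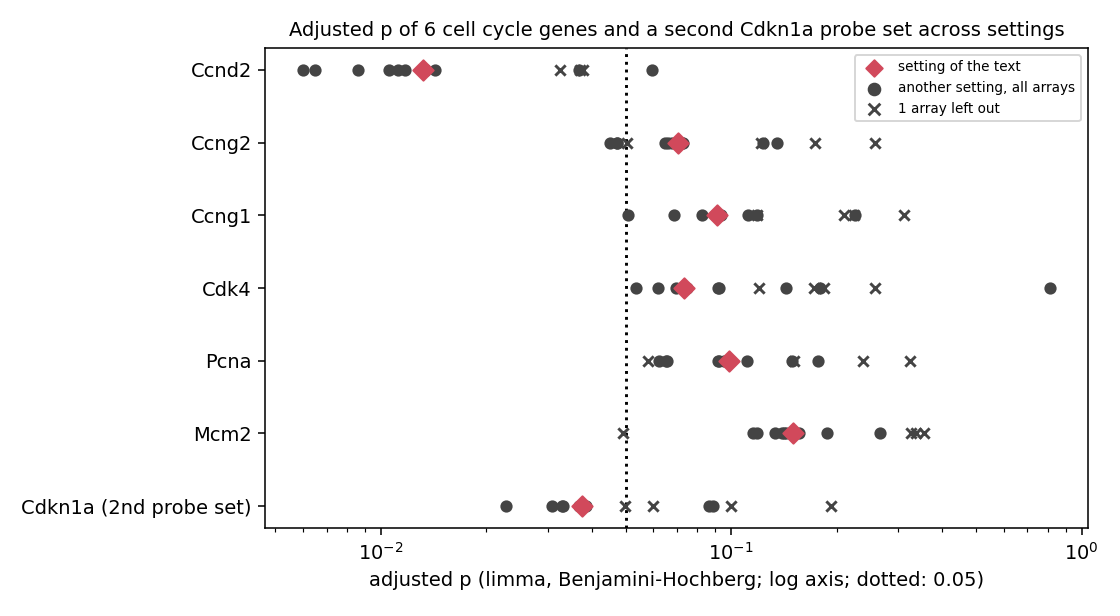
Adjusted p (limma with Benjamini-Hochberg adjustment, log axis, dotted line at 0.05) of 6 cell cycle genes and the dimmer Cdkn1a probe set in the setting of the text (diamond), under other settings with all arrays (circles) and with 1 array left out (crosses). Ccnd2 is above 0.05 under 1 setting only, at 0.0596, and Mcm2 is below it in 1 run only, with 1 array left out. Ccng2 and the Cdkn1a probe set have more than 1 value on each side.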

How the data were processed

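Ventricular total RNA from 2 non-transgenic and 2 SRF transgenic mouse samples was labelled with biotin and hybridised to Affymetrix arrays, per the labels' protocols. The deposited values are 1 linear signal intensity per probe set and array, and the software behind them is not given in the sources used here. With the brightest and dimmest 2% of values trimmed, every array had a mean of 150.1. Gene symbols came from GEO's platform table. The 12422 probe sets other than 66 controls were taken as log2(value + 9), where 9 is the rounded 20th percentile of all values. The log2 array medians lay within 0.12, so no scaling was added. Probe sets in the dimmest 40% (mean log2 value of the 4 arrays) were not tested.

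The groups were compared with lmFit and eBayes (variance trend) from limma 3.58.1 (R 4.3.3). Tests were two-sided, and p values were adjusted by the Benjamini-Hochberg method over 7453 probe sets, with a threshold of 0.05. The prior had 5.05 degrees of freedom and the design 2. Errors are moderated SE for log2 changes and SD for signals. Log2 changes understate the change of dim genes. The number of arrays limits the precision.

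The members, lists and tests were chosen with earlier results of these data known. All members were named, and of each other cell cycle list the genes past the threshold and the 2 with the smallest p. Cdk7, Phlda3 and Gadd45g were named beyond this rule. Cell type markers were given as counts and summed signals, with single genes as examples. The further cell cycle lists held 173 genes, of which 135 were measured. Alternatives were other pseudocounts (1 and 32), median centring, quantile normalization, no filter or a 60% filter, no or a robust variance trend, the mean of all probe sets of a gene, a replicate block, a threshold of 0.10, and leaving out each array.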

Additional observations from a re-analysis of the deposited data

How the results depend on the processing

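The count of 1 member higher became 2 under median centring, with the dimmest 60% left out and with the replicate block (Ccng2 joined in each), 4 at a threshold of 0.10 (Ccng1, Ccng2 and Pcna joined) and 0 without the variance trend; leaving out 1 array gave 1 to 2. The count lower became 1 (Cdk4) at a threshold of 0.10, and was 0 under the other alternatives run. Same-numbered arrays did not deviate together (correlation -0.06 over tested probe sets), so the numbers were not taken as pairs.

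The median log2 change of the mitosis genes was 0.38 with a pseudocount of 1, 0.10 with 32, and -0.011 to 0.32 with 1 array left out. For replication and mitosis genes together (0.39) it was 0.51 and 0.23 with pseudocounts of 1 and 32, 0.46 with median centring, 0.49 with quantile normalization, and 0.18 to 0.35 with 1 array left out. With the mean of all probe sets, uncalled log2 changes turned sign for Cdk2 (0.016), Cdk4 (0.087) and Plk1 (0.055), and for the untested Rb1 (-0.22) and Rrm1 (-0.29). With 1 array left out, uncalled changes ran across 0 for Ccnd1 (-0.076 to 0.15), Cdk2 (-0.18 to 0.0014), Cdkn1a (-0.096 to 0.55), Cdkn1b (-0.53 to 0.047), Cdk5 (-0.20 to 0.015), Ccnb2 (-0.055 to 0.13), Cdk1 (-0.0059 to 1.14) and Mcm4 (-0.27 to 0.30), and for the untested Aurka (-0.16 to 0.93), E2f1 (-0.076 to 0.63), Mcm6 (-0.42 to 0.68), Rb1 (-0.0022 to 0.11) and Top2a (-0.87 to 0.088). The causes were not tested.

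Over the 15 alternatives, 0 to 4 of the other cell cycle genes rose and 0 to 2 fell (2 and 1 in the text), and 44 to 477 of all probe sets rose and 34 to 484 fell (303 and 288 in the text). Median centring moved the median change of all tested probe sets from -0.01 to 0.07. Signals near the filter limit what can be said of the 9 dim members.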

Other observations

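Checkpoint and p53 response genes moved in both directions. Of 22 measured genes 1 rose, 1 fell, 13 did not pass the test and 7 were under the filter, and their median log2 change was 0.03. With 15 genes tested, these counts were close to the shares of all tested genes, of which 4.26% rose and 4.08% fell. Sesn1, a p53-induced regulator of nutrient signalling, was uniform on the non-transgenic arrays, at 601.2 and 600.4, and lower on the transgenic arrays, at 432.3 and 363.6. Its fall of 1.5-fold (log2 change -0.59 ± 0.12, limma, Benjamini-Hochberg adjusted p = 0.0313) was no longer called without non-transgenic replicate 1 (adjusted p = 0.0837) or 2 (0.0819), without transgenic replicate 2 (0.110), after median centring (0.0570), without the filter (0.0566) or without the variance trend (0.121).

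Plk2, a polo-like kinase of the stress response, had signals of 482.0 and 459.6 against 643.0 and 645.2. Its 1.36-fold rise (log2 change 0.45 ± 0.10, limma, Benjamini-Hochberg adjusted p = 0.0408) lost its call without any 1 of the 4 arrays (adjusted p from 0.0785 to 0.151), after quantile normalization (0.0546), without the filter (0.0579) and without the variance trend (0.141). Phlda3, a p53 target that restrains Akt signalling and is named here after its values were seen, had 113.7 and 100.7 against 177.6 and 159.1 and was not called (log2 change 0.61 ± 0.16, limma, Benjamini-Hochberg adjusted p = 0.0632). Gadd45g, also named after its values were seen, had the largest log2 change of the 22, at 16.7 and 50.8 against 88.3 and 123.6. It was not called either (log2 change 1.53 ± 0.40, limma, Benjamini-Hochberg adjusted p = 0.0655). Of the 22 genes, 8 had both transgenic arrays above both non-transgenic ones and 7 had them below, against 22.7% and 28.3% of all measured genes.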
